A study of Mus musculus with 16 samples.

Results

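The 10 immunoglobulin constant genes described here were matched by symbol to the count table: the heavy chain genes Ighm, Ighd, Ighg3, Ighg1, Ighg2b, Ighg2c, Ighe and Igha and the light chain genes Igkc and Iglc2. All 10 listed genes were found among the 53465 genes of the table. Bulk RNA-seq was done on 16 MC38 tumors, a murine colorectal carcinoma line grown under the skin of female C57BL/6 mice aged 6 to 8 weeks, which have an intact immune system and carry no engineered allele in the labels. When tumors measured 150 to 250 mm3, 8 mice received control IgG and 8 received an antibody that blocks the PD-1 checkpoint receptor (aPD-1), 200 ug on days 16 and 20, and tumors were taken on day 21. By the labels 2 of the aPD-1 tumors were responders and 6 were non-responders. The study sorted them by the CD8 T cells stained in sections of the same tumors, so the response groups were defined by an immune cell count and not by tumor shrinkage. RNA came from 2 frozen sections of 100 um per tumor. Tumors carry the numbers of their labels: controls 1 to 8, non-responders 9 to 14 and responders 15 and 16.

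An antibody is built of paired heavy and light chains, and the constant gene used by the heavy chain sets its isotype. A naive B cell makes IgM and IgD from Ighm and Ighd through alternative splicing. After activation, class switching can join the rearranged variable region to a downstream gene, giving an IgG subclass, IgE or IgA. C57BL/6 mice carry Ighg2c where some other strains carry Ighg2a. Plasma cells then transcribe the chosen heavy and light chain genes at very high levels.

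The 8 heavy chain genes lie in a row on the minus strand of chromosome 12 in GRCm38, from Ighm (chr12:113418558-113422730) and Ighd (chr12:113406604-113416324) through Ighg3 (chr12:113356224-113361232), Ighg1 (chr12:113325240-113330523), Ighg2b (chr12:113302965-113307933), Ighg2c (chr12:113285325-113288932) and Ighe (chr12:113269260-113273248) to Igha (chr12:113254830-113260236). Igkc is at chr6:70726435-70726966 and Iglc2 at chr16:19198396-19200351. The 4 IgG subclass genes are closely related, and the hinge exon, which holds the cysteines that join the heavy chains, is where they differ most. The hinge exons are shown because subclass counts rest on such differences. They are read 5′ to 3′ along the gene, with cysteine codons in frame in capitals, from the GENCODE M21 transcripts on GRCm38. They lie at chr12:113360529-113360576 for Ighg3, chr12:113329844-113329882 for Ighg1, chr12:113307261-113307326 for Ighg2b and chr12:113288263-113288325 for Ighg2c.
Ighg3: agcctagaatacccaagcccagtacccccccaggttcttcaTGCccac
Ighg1: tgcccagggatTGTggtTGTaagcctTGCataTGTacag
Ighg2b: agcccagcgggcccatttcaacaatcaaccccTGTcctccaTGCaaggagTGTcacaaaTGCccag
Ighg2c: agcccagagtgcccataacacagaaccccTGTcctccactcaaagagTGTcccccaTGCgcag

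Between subclasses the hinge exons were 41.3% to 77.3% identical, while the third exon of Ighg2b and Ighg2c reached 94.2%. No stretch of 150 bases, the length of 1 read, in the shortest transcript of any of the 10 genes occurred in another immunoglobulin gene. Among the lambda genes, the coding sequences of Iglc2 and Iglc3 were 96.2% identical and differed at 11 of 314 aligned bases. The first 120 of these aligned coding bases are shown because Iglc2 is the member most open to a split of reads between near copies. They lie at chr16:19198733-19198852 for Iglc2 and chr16:19065562-19065681 for Iglc3, and capitals mark the 7 bases of Iglc3 that differ.
Iglc2: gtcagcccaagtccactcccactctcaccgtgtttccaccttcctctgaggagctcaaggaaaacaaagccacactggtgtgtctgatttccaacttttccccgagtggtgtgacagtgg
Iglc3: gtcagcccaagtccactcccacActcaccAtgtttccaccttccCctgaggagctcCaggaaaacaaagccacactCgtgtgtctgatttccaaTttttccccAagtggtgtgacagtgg

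Libraries held 26603497 to 39948901 counts, and 15417 to 17296 genes had at least 10 counts. Mitochondrial genes took 2.52% to 7.60% of counts, with control 1 at the top, and 1 gene took 20.4% of the counts of control 3. The libraries labelled MC38 tumor held few transcripts of colon epithelium: the 8 listed markers, among them the keratins Krt8, Krt18 and Krt19, summed to 4.67 to 12.5 CPM (counts scaled to library size) in the 14 controls and non-responders, and Cdx2 was at 0 in all non-responders and responders. No test of the labels by a targeted gene was possible, because no gene was altered.

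The responders held far more constant gene RNA than the other tumors. The 10 genes summed to 2810 CPM in responder 15 and 1731 CPM in responder 16, against 10.04 to 34.2 CPM in the controls and 7.85 to 27.2 CPM in the non-responders. In bulk tissue, fewer cells of a type and less RNA per cell cannot be told apart. In edgeR's quasi-likelihood test over 18251 genes, 10 of 10 members were called higher in responders than in non-responders, where a call needed an adjusted p under 0.05 together with a log2 difference of more than 1, beside 12.5% of all genes called higher and 0.663% called lower. Against controls 10 of 10 were called higher, beside 14.3% of all genes called higher and 0.641% called lower. Both responders lay above every non-responder for 9 of 10 members, beside 21.5% of all genes, and above every control for 10 of 10, beside 19.3%. The median log2 difference of the members was 7.39 against non-responders, beside 0.02 over all genes, and 8.55 against controls, beside -0.02. Ighg3 and Ighe passed the filter on low counts (0.287 CPM in at least 2 tumors) only through the responders, so the count over the list is a description. With a filter of 10 counts in at least 8 tumors, 6 members were tested (Ighm, Ighd, Ighg1, Ighg2b, Ighg2c and Igkc) and 6 were called.

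**Figure D1:**
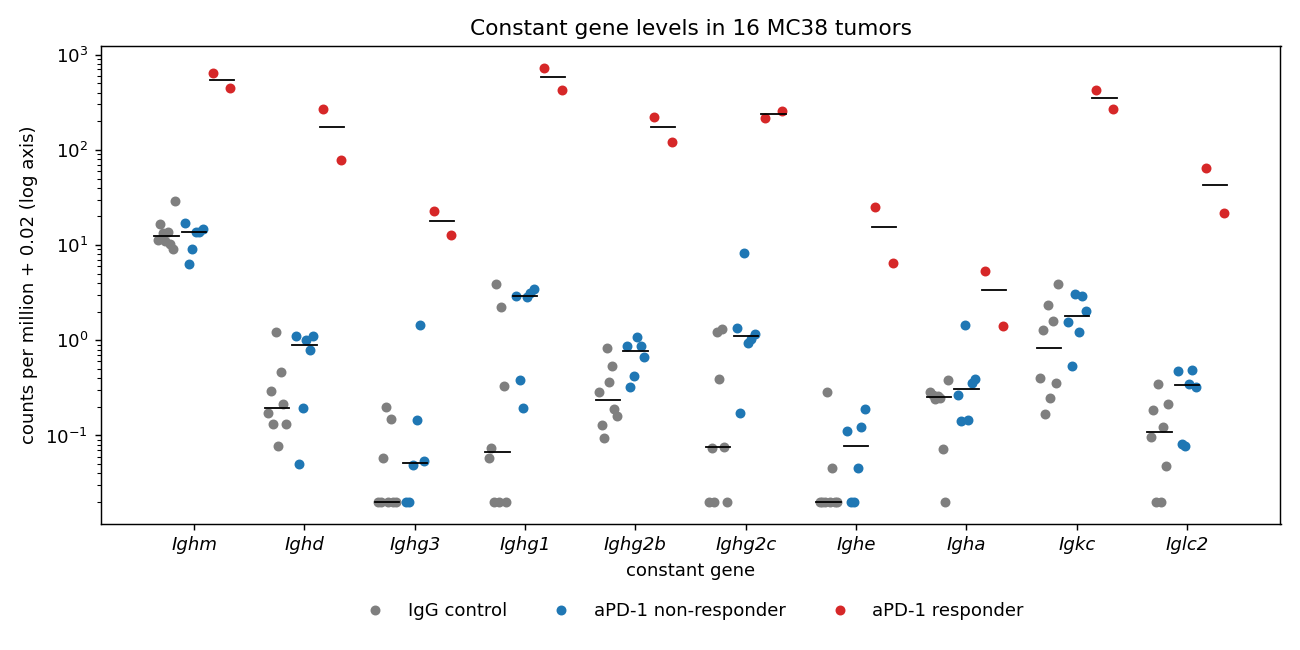
Levels of the 10 constant genes in CPM plus 0.02 on a log axis; each point is 1 tumor (8 IgG controls in grey, 6 aPD-1 non-responders in blue, 2 aPD-1 responders in red) and each bar is a group median. The responders lie above all other tumors for 9 of the 10 genes, the exception being Igha, and Ighm alone exceeds 6 CPM in every control and non-responder.

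Ighm, which encodes the mu chain of IgM, was the constant gene with the highest level outside the responders. Its level was 9.14, 12.3 and 28.9 CPM (lowest, median, highest) in controls and 6.35, 13.7 and 17.2 CPM in non-responders, against 647 and 447 CPM in the responders. Every tumor had at least 209 Ighm counts, and both responders stood above all others. The log2 difference between responders and non-responders was 5.45 (SE 0.36, edgeR adjusted p = 3.77e-08). Controls and non-responders overlapped, with a log2 difference of -0.19 (SE 0.26, edgeR adjusted p = 0.987).

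Ighd encodes the delta chain of IgD, which naive B cells carry beside IgM. It was at 272 CPM in responder 15 and 77.8 CPM in responder 16, against 0.0573, 0.174 and 1.2 CPM in controls and 0.0304, 0.879 and 1.10 CPM in non-responders. Responder 15 thus held several times the Ighd of responder 16, and neither came near any other tumor. The log2 difference to non-responders was 7.98 (SE 0.74, edgeR adjusted p = 1.03e-06), and 6.74 without responder 15.

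Among the IgG subclass genes, Ighg1 had the highest CPM in both responders. It reached 731 and 426 CPM there, against 0, 0.0463 and 3.93 CPM in controls and 0.173, 2.89 and 3.45 CPM in non-responders, a log2 difference to non-responders of 8.07 (SE 1.16, edgeR adjusted p = 1.19e-04). Counts outside the responders fell into a wide range: Ighg1 had 86 to 131 counts in controls 4 and 6 and in non-responders 9, 12, 13 and 14, and 0 to 12 in the other 8 tumors.

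Ighg2c, the subclass gene of this strain that is linked to interferon gamma, was the only subclass gene higher in responder 16 than in responder 15. The responders held 218 CPM (tumor 15) and 257 CPM (tumor 16), the controls 0, 0.0554 and 1.3 CPM and the non-responders 0.152, 1.08 and 8.26 CPM. The highest non-responder value was that of tumor 11, with 287 counts, while the other non-responders had 5 to 44. The log2 difference between responders and non-responders was 6.79 (SE 1.02, edgeR adjusted p = 1.61e-04), and 8.02 without non-responder 11.

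Ighg2b was detected in every tumor. It was at 223 and 122 CPM in the responders, 0.0748, 0.217 and 0.809 CPM in controls and 0.304, 0.746 and 1.06 CPM in non-responders, with a log2 difference to non-responders of 7.96 (SE 0.48, edgeR adjusted p = 1.71e-08). Ighg3 was the lowest subclass gene in the responders, at 22.8 and 12.8 CPM. It had no count in 5 controls and 2 non-responders, which allows up to 3 counts in each, and its highest value outside the responders was 1.41 CPM, or 55 counts, in non-responder 13. The log2 difference of Ighg3 to non-responders was 5.99, and 8.66 without non-responder 13. It is given as a description, since Ighg3 entered the fit only through the responders.

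Ighe encodes the epsilon chain of IgE, the isotype bound by mast cells. It was at 24.9 and 6.44 CPM in the responders and at 0 to 9 counts in the other tumors, with no count in 8 of the 14. Its log2 difference to non-responders was 7.87, and 6.51 without responder 15. That is a description too, since Ighe was below the filter's level in all 14 other tumors. Igha, the gene of the mucosal isotype IgA, differed least. It was at 5.32 CPM in responder 15 and 1.41 CPM in responder 16, beside 0, 0.235 and 0.360 CPM in controls and 0.121, 0.289 and 1.44 CPM in non-responders.

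Responder 16 was thus just below non-responder 11 in Igha, and responders and non-responders overlapped for this member alone. The Igha log2 difference of responders to non-responders was 2.92 (SE 0.81, edgeR adjusted p = 0.0168). It was 3.80 without non-responder 11 and 3.54 without responder 16, and it was not called without responder 15, at 1.60 (edgeR adjusted p = 0.539). With that tumor left out, the difference to controls went from 4.04 (SE 0.76, edgeR adjusted p = 8.34e-04) to 2.71 (edgeR adjusted p = 0.131), and it was 4.65 without responder 16.

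Igkc, the single kappa light chain gene, was at 427 and 267 CPM in the responders, 0.150, 0.819 and 3.88 CPM in controls and 0.516, 1.78 and 3.02 CPM in non-responders (log2 difference to non-responders 7.54, SE 0.75, edgeR adjusted p = 2.24e-06). Iglc2, the gene of one lambda chain, was at 64.3 and 22.0 CPM in the responders and at most 0.462 CPM elsewhere (log2 difference 7.25, SE 0.70, edgeR adjusted p = 1.29e-06, and 6.21 without responder 15). Both responders lay above all other tumors for both genes. The other lambda genes were lower, with 359 and 294 counts for Iglc1 and 601 and 205 for Iglc3 in responders 15 and 16 and at most 13 counts in any other tumor. Igkc overlaps the lincRNA gene Gm30211 on the same strand, which had 76 and 58 counts in the responders and at most 2 elsewhere.

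Non-responders and controls were not told apart by any member. In edgeR's test 0 of 10 members were called, beside 0% of all 18251 genes, and 0 of 10 had every non-responder above every control, beside 0.0164% of all genes. There were 3 members (Ighg3, Ighg2b and Ighg2c) and 694 genes in all at an unadjusted p under 0.05. DESeq2 also called 0 of 10 members, and 4 genes of the whole table. The log2 differences of those 3 members were 2.54 (SE 1.11) for Ighg3, 1.16 (SE 0.42) for Ighg2b and 2.45 (SE 0.87) for Ighg2c, and their smallest edgeR adjusted p was 0.987. Without non-responder 13 the Ighg3 difference was -0.13, and without non-responder 11 the Ighg2c difference was 1.22.

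To compare isotypes, counts were divided by the merged exon length of each gene, and each gene was expressed as a share of the summed heavy chain counts per kb of its tumor. Ighm made up a smaller share in responders than elsewhere. It took 32.9% and 34.2% in responders 15 and 16, against 40.3%, 71.3% and 88.7% (lowest, median, highest) in non-responders and 61.1%, 94.5% and 98.4% in controls. Both responders lay below every other tumor, by 35.3 percentage points on average from non-responders (p = 0.0357 in a two-sided exact permutation test, the smallest that 2 against 6 tumors can give) and by 54.6 points from controls (exact permutation test, p = 0.0222, the smallest for 2 against 8). Non-responders averaged 68.9% (SD 15.8, n = 6) and controls 88.2% (SD 14.3, n = 8), a difference of -19.2 points (exact permutation test, p = 0.0406, adjusted p = 0.129). Igha also took a smaller share in both responders (0.191% and 0.0761%) than in every non-responder (0.471% to 4.55%). Its difference of means gave p = 0.286 in the exact permutation test, and the responders overlapped the controls (0% to 1.58%). After adjustment over the 39 share tests, no share reached 0.05, and the smallest adjusted p in these exact permutation tests was 0.129.

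**Figure D2:**
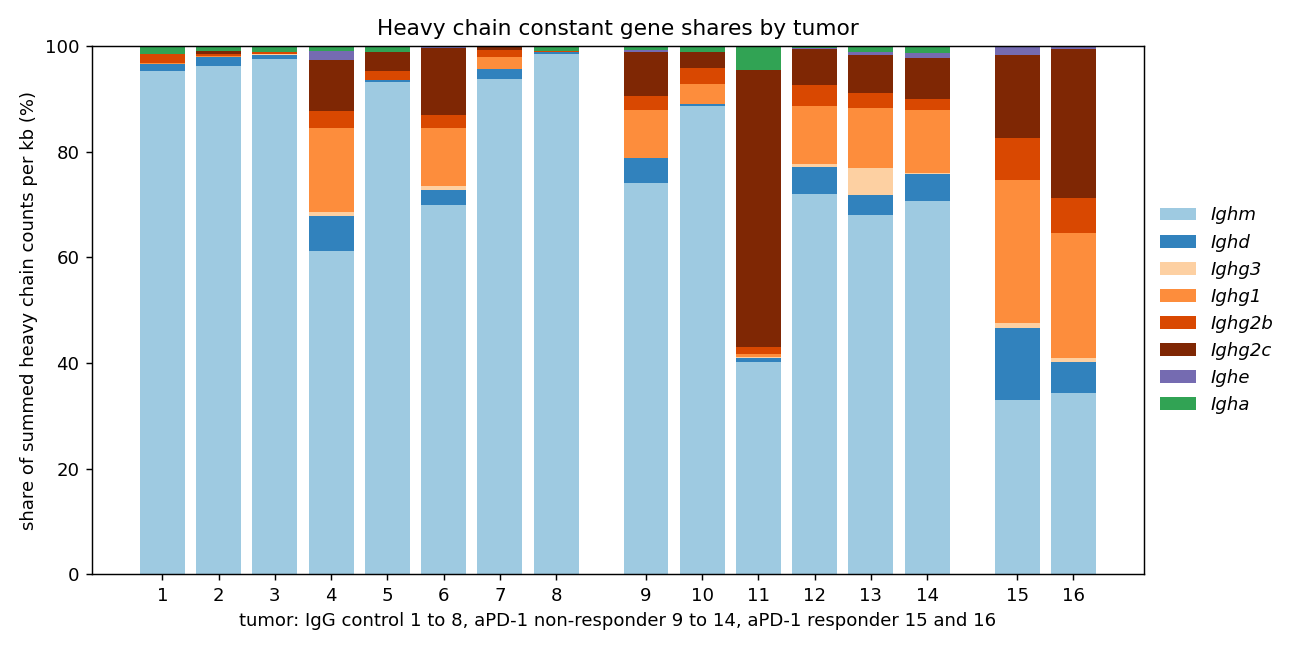
Share of each heavy chain constant gene in the summed heavy chain counts per kb, in percent, with 1 bar per tumor (IgG controls 1 to 8, aPD-1 non-responders 9 to 14, aPD-1 responders 15 and 16). Ighm fills most of the bar in the controls, the responders are split mainly between Ighm, Ighg1, Ighg2c, Ighd and Ighg2b, and non-responder 11 stands out with 52.5% Ighg2c.

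The switched genes, meaning the 4 IgG subclasses with Igha and Ighe, together took 53.4% and 59.8% of heavy chain counts per kb in the responders. The shares were 10.9%, 23.5% and 59.0% in non-responders and 1.2%, 3.87% and 32.2% in controls. Non-responder 11 fell between the responders, and the other non-responders were at 28.3% or less. Responders differed by 28.9 points from non-responders (exact permutation test, p = 0.0714, adjusted p = 0.0918) and by 46.8 points from controls (exact permutation test, p = 0.0222, adjusted p = 0.0536). Non-responders differed by 17.9 points from controls (exact permutation test, p = 0.0336, adjusted p = 0.0536), but by 11.7 points without non-responder 11 (exact permutation test, p = 0.0847, adjusted p = 0.109). Apart from that tumor, the highest switched shares outside the responders, 21.2% to 32.2%, were those of controls 4 and 6 and non-responders 9, 12, 13 and 14, the tumors whose low levels of several members and variable genes resembled the responders. Whether reads from the responders entered these shares was not tested. These p-values were adjusted over 9 tests of this share and of the light chain ratios. The 9 tests use overlapping counts and were added after the data were seen. With counts not divided by length all 3 adjusted p-values of the exact permutation tests were 0.0459. There the p of both responder comparisons was the smallest that the tumor numbers can give.

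Within the responders the isotype make-up differed between the 2 tumors. Responder 15 had 27.04% Ighg1, 15.8% Ighg2c and 13.7% Ighd, and responder 16 had 23.8% Ighg1, 28.1% Ighg2c and 5.92% Ighd. Responder 15 was thus richer in Ighd and responder 16 in Ighg2c, and the Ighd share of responder 16 was below the 6.66% of control 4. Ighg2b took 7.98% and 6.61%, while Ighe, Ighg3 and Igha each took 1.5% or less. Counting error was small beside this difference: as plain shares of 72516 and 48079 heavy chain counts, Ighg2c was 10.2% (95% Wilson interval 9.95% to 10.4%) in responder 15 and 19.0% (18.7% to 19.4%) in responder 16, intervals that cover counting error only.

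The rank of the isotypes depended on the length used. The annotated Ighg2c spans 1326 exonic bases, against 2592 for Ighg1, 2678 for Ighg2b and 2512 for Ighg3, so division by merged exon length raises Ighg2c relative to the others. With the shortest annotated transcript, where the 4 subclasses have 1076 to 1114 bases, Ighg1 was the leading heavy chain gene in both responders, at 35.9% and 34.4%, ahead of Ighm at 22.9% and 26.0%, and Ighg2c was at 10.4% and 20.1%. With either length Ighm was lower in the responders than in every other tumor: with the shortest transcript its lowest share elsewhere was 38.8%, in non-responder 11. Secreted and membrane forms were not separated, since the counts are per gene.

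Among the 4 IgG genes alone, responders and the other tumors overlapped for every subclass. Ighg1 was 52.3% and 40.2% of IgG counts per kb in the responders, and 1.03%, 44.2% and 54.3% in non-responders. Ighg2c was 30.5% and 47.4% in the responders and 26.6%, 33.2% and 96.5% in non-responders. The difference between responders and non-responders was 7.73 points for Ighg1 (exact permutation test, p = 0.607, adjusted p = 0.764) and -4.59 points for Ighg2c (exact permutation test, p = 0.857, adjusted p = 0.937), so no subclass difference was detectable with 2 responders. In the controls the shares rest on few counts: controls 1, 2, 3, 5, 7 and 8 held 3 to 25 IgG counts each.

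The kappa share of light chain counts per kb, taken over Igkc, Iglc1, Iglc2 and Iglc3, overlapped between all groups. It was 82.7% and 88.2% in the responders, 65.8%, 80.3% and 91.3% in non-responders and 77.4%, 91.5% and 100% in controls, where tumors 3 and 5 had only 4 and 8 light chain counts. Responders and non-responders differed by 4.74 points (exact permutation test, p = 0.571, adjusted p = 0.743).

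Ighm RNA outside the responders came with little light chain RNA. Per kb, Igkc was 2.34 and 2.11 times Ighm in responders 15 and 16, but 0.288, 0.400 and 1.19 times in non-responders and 0.0397, 0.201 and 0.750 times in controls. Control 3, for example, had 357 Ighm counts and 4 Igkc counts, and control 5 had 478 and 8. The difference in the ratio was 1.67 between responders and non-responders (exact permutation test, p = 0.0357, adjusted p = 0.0536) and 1.93 between responders and controls (exact permutation test, p = 0.0222, adjusted p = 0.0536), with both responders above every other tumor. With counts not divided by length these differences were 0.472 and 0.544, each with an adjusted p of 0.0459 in the exact permutation test. Tests of this ratio were added after the data were seen. Non-responders and controls overlapped (difference 0.26, exact permutation test, p = 0.147), with a difference of 0.129 without non-responder 11. The ratio of Igkc to Ighm also depends on the Ighm share of heavy chain, which was lower in the responders. All light chain over all heavy chain counts per kb gave a ratio of 0.932 and 0.821 in responders 15 and 16. That ratio was 0.282, 0.381 and 0.659 in non-responders and 0.0387, 0.228 and 0.571 in controls. Its mean was 0.876 in responders, 0.420 in non-responders and 0.272 in controls.

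**Figure D3:**
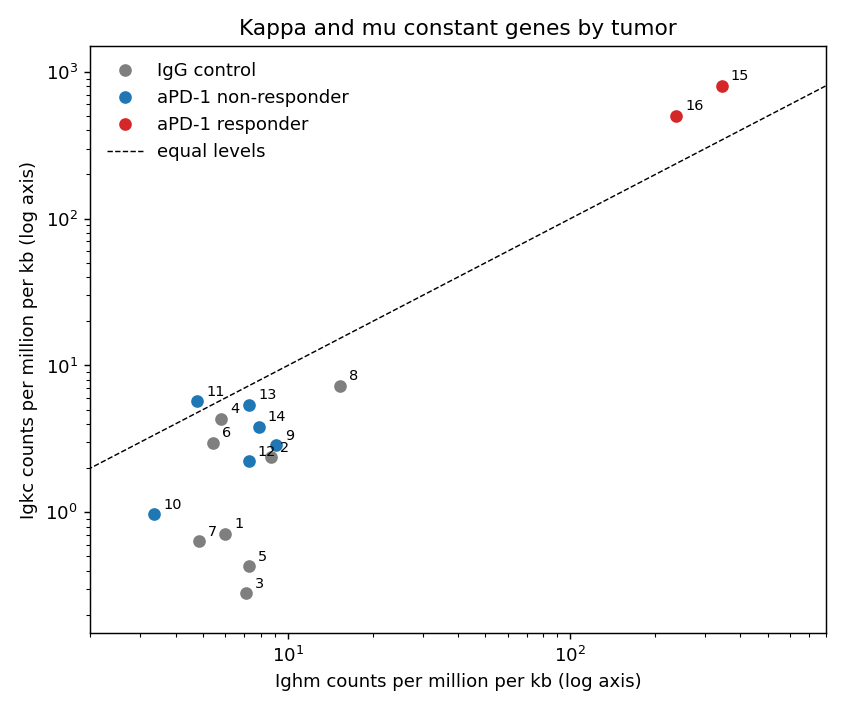
Igkc against Ighm in CPM per kb on log axes, with 1 numbered point per tumor (IgG control grey, aPD-1 non-responder blue, aPD-1 responder red) and a dashed line of equal levels. Ighm spans 3.37 to 15.3 CPM per kb in the 14 controls and non-responders while Igkc spans 0.281 to 7.29, and the responders and non-responder 11 lie above the line.

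The variable gene segments showed the same pattern. The 113 annotated heavy chain variable genes summed to 8473 and 5824 counts in responders 15 and 16, but to 2 to 60 counts in the other tumors, whose Ighm counts were 209 to 1045. In control 3 the 357 Ighm counts stood beside 4 heavy chain variable counts. The 100 kappa variable genes summed to 14430 and 10849 counts in the responders and 0 to 131 elsewhere.

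Control 8, non-responder 11 and non-responder 13 had constant gene make-ups of their own. Control 8 had the most Ighm of the controls and non-responders (1045 counts) and the most Igkc (140 counts), with 0 counts for Ighg1, Ighg2c, Ighg3 and Ighe out of 1067 heavy chain counts, which allows a share of up to 0.281% for each. Its leading kappa variable gene was Igkv2-137, with 36 of 114 kappa variable counts.

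Non-responder 11 combined 313 Ighm, 287 Ighg2c, 50 Igha and 105 Igkc counts. Ighg2c was 42.4% of its 677 heavy chain counts (95% Wilson interval 38.7% to 46.2%). The gene Ighv1-50 gave 81.7% of its heavy chain variable counts (49 of 60), and Igkv8-24 gave 75.8% of its kappa variable counts (75 of 99). In responder 15, by contrast, the leading gene of each kind gave 17.1% (Ighv1-78) and 20.6% (Igkv6-20), and in responder 16 it gave 8.40% (Ighv1-82) and 16.1% (Igkv1-110).

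Non-responder 13 had 55 of the 62 Ighg3 counts found in the 6 non-responders. Ighg3 was 6.62% of its 831 heavy chain counts (95% Wilson interval 5.12% to 8.52%). Its leading kappa variable gene, Igkv8-16, had 28 counts there but 5 and 1 in responders 15 and 16.

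Relative to responder 15, some members sat at similar small percentages in controls 4 and 6 and in non-responders 9, 12, 13 and 14. In these tumors Ighg1 was at 0.305% to 0.537% of its CPM in responder 15, Ighd at 0.162% to 0.441%, and Ighg2b at 0.233% to 0.477%. The same 6 tumors had the most Ighg1 counts outside the responders, so their Ighg1 values describe the grouping and are no support for it. In the other 8 tumors Ighg1 was at 0.0499% or less, Ighd at 0.101% or less and Ighg2b at 0.181% or less. Ighe was at 0.102% to 1.09% in the 6 and at 0 in the other 8, on at most 9 counts per tumor. The remaining members did not separate these tumors: Igkc was at 0.278% to 0.673% in the 6 and at 0.035% to 0.907% in the other 8, and Ighm was at 0.981% to 4.47% in all 14. For Ighg2c, at 0.418% to 0.616% in the 6, only non-responder 11 (3.79%) broke the split. The rest of the other 8 were at 0.171% or less.

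The variable gene counts of these tumors also resembled those of the responders. The cosine between a tumor's variable gene counts and those of responder 15 was 0.939 for control 4, 0.814 for non-responder 9, 0.757 for non-responder 14, 0.710 for non-responder 12, 0.537 for non-responder 13 and 0.454 for control 6. Control 6 was closer to responder 16, at 0.895. For the other 8 tumors the cosine was at most 0.212 with responder 15 and 0.309 with responder 16, over 2 to 170 variable gene counts per tumor. The 10 B cell markers summed to 0.640% of their level in responder 15 in control 4 and to 0.313% in control 6. In non-responders 9, 12, 13 and 14 they summed to 0.549%, 0.460%, 0.525% and 0.443%. In the other 8 tumors they summed to 0.144% to 0.328%, with non-responder 11 highest. Whether reads passed between libraries was not tested.

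**Figure D4:**
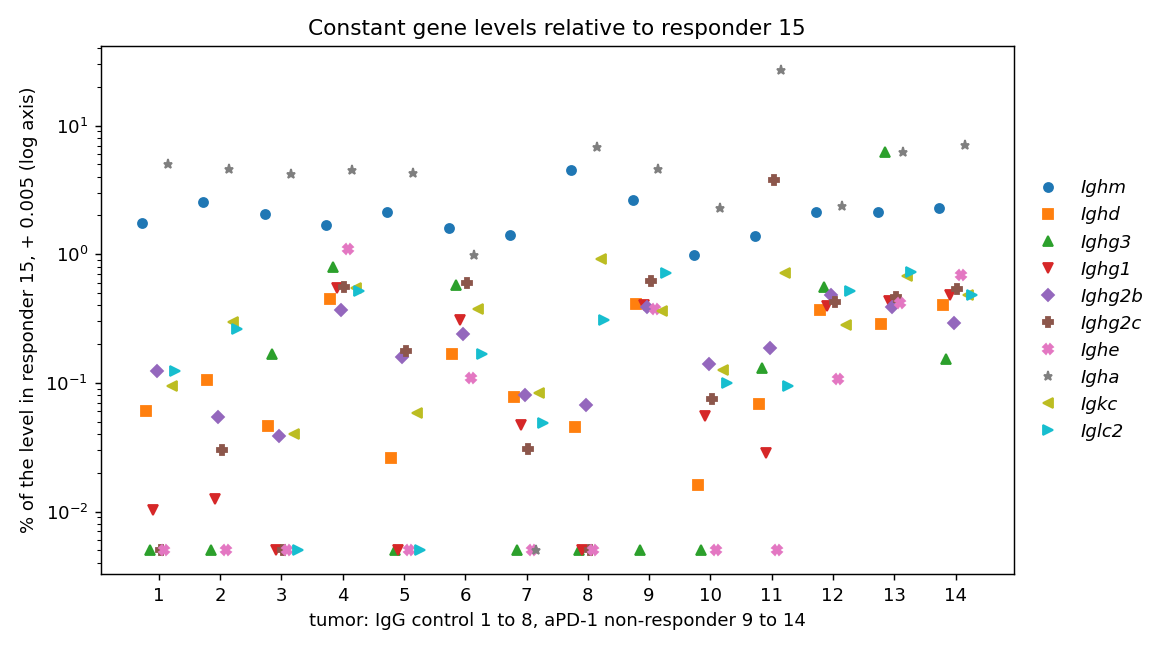
Level of each constant gene in controls 1 to 8 and non-responders 9 to 14 as a percentage of its CPM in responder 15, plus 0.005, on a log axis, with 1 symbol per gene. Most genes gather between 0.1% and 1.1% in tumors 4, 6, 9, 12, 13 and 14, whereas Ighm is higher in all 6, Igha is higher in 5 of them (0.975% in control 6), Ighg3 is at 6.19% in non-responder 13, and non-responder 11 stands out for Igha (27.1%) and Ighg2c (3.79%).

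Over the 14 controls and non-responders, the genes outside the immunoglobulin loci whose log2 CPM followed the members most closely differed between members. For Igkc they were Jchain (Pearson r = 0.89), Arhgap8 (0.85) and Mzb1 (0.84), of which Jchain joins IgM and IgA into polymers and Mzb1 is a chaperone of antibody-secreting cells. For Ighm they were Zfp831 (0.80), Fam161b (0.75) and Ppfia4 (0.74), and for Ighg2c A930007I19Rik (0.81), Slpi (0.79) and Ly6h (0.77). Many of these genes had few counts, such as 0 to 3 for Ly6h, and the 14 points share library depth. No p was computed for them, since they were selected by that correlation from all genes tested.

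Genes of the B cell lineage were higher together with the constant genes. All 10 of 10 B cell markers were called higher in responders than in non-responders (median log2 difference 7.56, beside 0.02 over all genes), and the same 10 were called against controls. Over all genes 12.5% were called higher against non-responders and 14.3% against controls. Cd79a, the signalling chain of the B cell receptor, was at 214 and 52.5 CPM in responders 15 and 16 and at 0.784 CPM or less in the other tumors, and Ms4a1, which encodes CD20, at 195 and 57.5 CPM against 0.948 or less. Responder 15 thus held more of both markers than responder 16, as it did of Ighd.

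Of 14 genes of plasma cells and antibody secretion, 7 were called higher against non-responders, beside 12.5% of all genes. The other 7 were not called (median log2 difference of the list 1.68). Those called were Jchain, Mzb1, Irf4, Tnfrsf17, Tnfrsf13b, Pou2af1 and Derl3. Jchain was at 382 and 269 CPM in the responders and at most 2.6 CPM elsewhere (log2 difference to non-responders 8.00, SE 0.92, edgeR adjusted p = 1.13e-05), and Mzb1 at 67.5 and 54.0 CPM and at most 0.468 CPM elsewhere. The transcription factors Xbp1 (log2 difference 0.54, SE 0.14) and Prdm1 (-0.25, SE 0.35) and the surface proteoglycan Sdc1 (-0.17, SE 0.24) were not called, and all of them had over 10 CPM on average in both groups.

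Of 12 signals that direct switching, 9 passed the filter. Against non-responders 4 were called higher (median log2 difference 1.36), beside 12.5% of all genes. These were Il10, Cd40 and the T cell help for B cells, Il21 and Cd40lg. Cd40 encodes the receptor of the Cd40lg product on B cells. Il21 differed by 6.77 (SE 0.80, edgeR adjusted p = 1.13e-05) on the log2 scale and Cd40lg by 4.94 (SE 0.90, edgeR adjusted p = 7.48e-04), with means of 0.911 and 1.01 CPM in the responders. Ifng differed by 1.23 from non-responders (SE 0.60, edgeR adjusted p = 0.173) and was called higher against controls, at 2.44 (SE 0.55, edgeR adjusted p = 0.00335). Il4, Il5 and Il13 did not pass the filter, with means of 0.130, 0.129 and 0.155 CPM in the responders.

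Of 10 antibody receptor and transport genes, 3 were called higher against non-responders (median log2 difference 0.58), beside 12.5% of all genes. Fcmr, the IgM receptor of B cells, differed by 8.00 (SE 0.64, edgeR adjusted p = 2.24e-07), Fcamr, a receptor for IgM and IgA, by 6.62 (SE 0.93, edgeR adjusted p = 6.56e-05) and Fcgrt, the neonatal IgG receptor, by 1.61 (SE 0.38, edgeR adjusted p = 0.00604). The inhibitory IgG receptor Fcgr2b was not called (0.15, SE 0.13).

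Markers of other cells moved with the same 2 tumors. The 6 markers of high endothelial venules and lymph node stroma, among them Glycam1, Madcam1 and Ccl21a, were called higher in 6 of 6 cases against non-responders (median log2 difference 6.96) and summed to 423 and 130 CPM in responders 15 and 16, 0.190 to 2.19 CPM in controls and 0.921 to 4.58 CPM in non-responders. The 8 T cell markers were called higher in 8 of 8 cases (median 3.49) and summed to 249 and 223 CPM in the responders, against 8.27 to 28.8 and 12.5 to 35.8 CPM, though T cell counts had defined the groups. Responder 15 held more of both lists than responder 16. Of the 8 epithelial markers, 4 (Epcam, Krt8, Krt18 and Krt19) were called higher, with sums of 50.7 to 117 CPM in the responders. Of 7 genes of skin, muscle and fat, the fat genes Adipoq and Plin1 were called higher, though the median log2 difference of the 7 was -1.06. Of 5 macrophage markers Mrc1 was called higher (median log2 difference 0.61). Over all genes tested, 12.5% were called higher against non-responders. Against controls the calls were those named, with Ifng, Pigr and Lyz2 in addition, and between non-responders and controls 0 genes of any list were called. The part of lymph node or other adjacent tissue in the constant gene levels was not tested.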

How the data were processed

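Per the labels, poly(A) RNA was made into strand-specific libraries, and the authors aligned paired reads of 150 bases to GRCm38 with STAR 2.6 and estimated counts per Ensembl gene with RSEM 1.3.0. The deposited values are expected counts (7.83% not whole), which were rounded. No column of per-sample values was left unused. 92 entries with spike-in names, at most 185 counts per tumor, were left out, and 53274 genes had a symbol in GENCODE M21.

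One edgeR 4.0.16 quasi-likelihood fit (TMM, filterByExpr, robust) covered all 16 tumors and 3 groups, with Benjamini-Hochberg adjustment over 18251 genes and the study's thresholds (adjusted p below 0.05, log2 fold change above 1 in size). R was 4.3.3 and Python 3.11.15. CPM used TMM-scaled library sizes, except in the summed level of the 10 genes, which used total counts. Shares were compared by exact permutation tests over tumors, two-sided. Nothing in the labels gives a sequencing batch. Each tumor is 1 mouse, and no 2 libraries agreed within sampling noise (120 pairs compared by chi-square over genes, at least 16.1 per degree of freedom). The edgeR fit was tested on simulated counts, for responders against non-responders and for non-responders against controls. In these 54% and 72% of 2-fold changes were recovered, and 6.18% and 5.24% of genes below the adjusted p threshold were false. Recovery was counted on the adjusted p alone, without the log2 fold change threshold of a call. The changed genes were drawn above a minimum mean level, so these rates need not hold for members with few counts. That simulation did not cover the exact permutation tests. Wilson intervals (95%) and the limit of 3 counts behind a count of 0 cover counting error only.

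The members, gene lists and tests were chosen with earlier results of these data known. Named genes were the members, Iglc1, Iglc3, the listed genes as counts with values where a sentence turns on them, and, for Ighm, Ighg2c and Igkc, the 3 genes most correlated over the 14 tumors that are not responders; variable genes were chosen for naming once their values were known. Alternatives tried were other size factors, DESeq2 1.42.0, other filters, only the 2 groups compared, library sizes without immunoglobulin genes, other lengths and denominators, and each tumor left out. The shortest-transcript length, the minimum of 20 summed counts and the switched share and light chain ratios were added after the data were seen. The genes that carry out class switch recombination are not reported here.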

Additional observations from a re-analysis of the deposited data

Results flagged for a closer look

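In 52 groups of 6 or 8 values, 16 values stood far from the others of their group by Dixon's criterion. It flags about 1 in 20 groups by chance when values are normally distributed. Several groups rest on few counts, such as Ighe with no count in 6 of 8 controls, so that rate need not hold here. The levels and shares of a gene are not independent of each other. Most of the 16 values came from a few tumors. Non-responder 11 was far above the other non-responders in Ighg2c (8.26 CPM, next 1.34), in Igha (1.44 CPM, next 0.372), in the Ighg2c share of heavy chain counts per kb (52.5%, next 8.23%), in the Igha share (4.55%, next 1.25%), in the switched share (59.0%, next 28.3%) and in the Ighg2c share of IgG (96.5%, next 41.1%), and far below them in the Ighg1 share of IgG (1.03%, next 38.2%). Non-responder 13 was far above in Ighg3, at 1.41 CPM, at 5.24% of heavy chain and at 19.8% of IgG. Control 4 was far above the other controls in Ighd (1.2 CPM, and 6.66% of heavy chain) and in Ighe (0.270 CPM, and 1.80% of heavy chain, from 9 counts). Control 8 was far above in Ighm (28.9 CPM, next 16.5). Control 3 had an Ighg3 share of IgG of 34.8%, which rests on 1 count.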

How the results depend on the processing

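Of 288 alternative values for the log2 differences of the 10 members in the responder comparisons, 286 kept their direction and call, and Igha lost its call without responder 15 (1.60 and 2.71). Those of Ighg3 and Ighe are descriptions, since both entered the fit only through the responders. DESeq2 gave no adjusted p for Ighg3 and Ighg2c in any comparison and called the other 8 members against both groups. With at least 10 counts in at least 8 tumors, 6 members were tested and 6 called in each responder comparison, because fewer genes pass this filter. No paired analysis was possible because the groups share no replicate numbers. In none of the planned or added settings did a heavy chain, kappa or IgG subclass share pass an adjusted p of 0.05.

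Small differences that did not pass a test changed sign when 1 tumor was left out; the cause was not tested. Ranges over the tumors left out were, between non-responders and controls, -0.31 to 0.036 for the Ighm and -0.13 to 3.28 for the Ighg3 log2 difference, -0.0595 to 0.989 points for the Ighg3 and -0.00443 to 0.335 points for the Ighe share of heavy chain, and -4.38 to 3.07 points for the Ighg3 share of IgG. Between responders and non-responders they were -0.389 to 0.660 points for the Ighg3 share of heavy chain, and, as shares of IgG, -3.09 to 0.870 points for Ighg3, -3.17 to 2.52 for Ighg2b and -13.0 to 6.00 for Ighg2c. Between responders and controls the Ighg3 share of IgG ranged from -4.22 to 0.745 points. With only tumors of at least 20 summed counts, the Ighg2c share of IgG differed by -10.3 points between responders and controls and by -5.76 points between non-responders and controls, and the Ighg3 share of IgG by 2.11 points between non-responders and controls. Depth limits the isotype shares outside the responders, where 3 of 8 controls had no Ighg1 count and 3 had no Ighg2c count.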
